A study of Bos taurus with 10 samples.

Results

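ACTB encodes beta-actin, 1 of the cytoplasmic actins. The gene is the row ENSBTAG00000026199 of a table of read counts, 1 of 16963 gene rows, measured in longissimus muscle of 10 steers. The row was chosen by its identifier, with its levels and its difference between the maternal diets already known from earlier work on the same counts, so the levels and the difference between the diets are given as a description, with no test of ACTB itself between the diets. The name ACTB came with that choice: the table pairs no identifier with a name, and 0 of the 16963 identifiers occur in the RefSeq cattle gene table used here (assembly ARS-UCD2.0), so the pairing was not checked and no coordinates are given.

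The steers were an Angus x Simmental cross, male and 385 ± 5 days old, and every library came from the longissimus, the long muscle of the back. Dams of 5 steers (DDGS) had received dried distillers grains and solubles while lactating, and dams of the other 5 (SBM) had received the control diet. The labels place the diets in the dams' lactation and say nothing of sires, batches or days of collection. Each library is 1 animal, and that the animals are separate rests on the labels. The libraries held 16942156 to 24936741 counts. Of these, the 2 most abundant identifiers took 48.9% to 54.1%. DDGS replicate 3 had the most genes, 5078, at the table's lowest value of 1. A set of 149 genes that vary together, found after the data had been seen, stood apart in a few libraries, as given beside the results it accompanies.

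Actins polymerise into filaments. In a muscle fibre the filaments that slide past myosin are built mainly from skeletal alpha-actin, the product of another gene, whereas beta-actin forms the dynamic filaments of the cell cortex, of protrusions and of adhesion sites in nearly all cell types. In adult muscle the fibres hold little of it, and cells between the fibres, such as those of vessels, connective tissue and the immune system, are known as its main sources. The gene responds to serum response factor and its actin-sensing cofactors, and it is often used as an internal reference on the assumption that its level is even across samples. The actin genes are similar in sequence and cattle carry several actin-like copies. How reads shared between such copies were counted is not given in the sources used here, so some of the counts could belong to a relative of ACTB.

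ACTB was detected at a high count in every animal. The DDGS libraries held 3538, 2766, 1774, 2252 and 3689 ACTB counts in replicates 1 to 5, and the SBM libraries 3032, 3644, 4470, 3607 and 5224. Counts of this size fix each level closely, with a counting error of 1.38% to 2.37% of the value. Since amplified reads are not independent molecules, this figure and the intervals from it cover counting error only. Levels are given as CPM, counts relative to the size of the library, here adjusted by TMM factors, which align the bulk of the genes between libraries.

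ACTB was lower in most offspring of DDGS-fed dams. DDGS replicates 1 to 5 stood at 148, 144, 121, 117 and 179 CPM. SBM replicates 1 to 5 stood at 175, 191, 217, 193 and 274 CPM. The groups overlapped in a single pair of animals: DDGS replicate 5 lay above SBM replicate 1, and in the other 24 of 25 pairs the DDGS animal was the lower. The 5 DDGS animals averaged 142 ± 25 CPM and the 5 SBM animals 210 ± 39 CPM (mean ± SD), and the medians were 144 and 193 CPM. The highest animal, SBM replicate 5, had 2.34 times the level of the lowest, DDGS replicate 4.

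**Figure D1:**
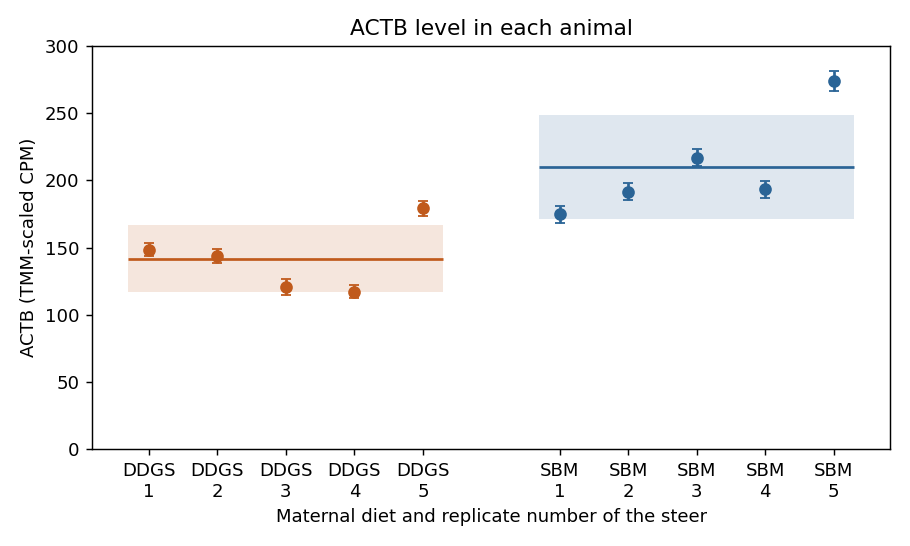
ACTB level in TMM-scaled CPM (vertical axis) in each of the 10 steers, grouped by maternal diet. Points are animals with 95% Poisson counting intervals, and lines with shaded bands are the mean ± SD of 5 animals: 4 of the DDGS animals lie below every SBM animal, and DDGS replicate 5, at 179 CPM, lies just above SBM replicate 1, at 175 CPM.

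In order of level the animals ran from DDGS replicate 4 through DDGS replicates 3, 2 and 1 to SBM replicate 1, DDGS replicate 5, and SBM replicates 2, 4, 3 and 5. Of the 9 steps between neighbours in this order, 4 were within counting error, as the exact 95% Poisson intervals overlapped: DDGS replicates 4 and 3, DDGS replicates 2 and 1, SBM replicate 1 and DDGS replicate 5, and SBM replicates 2 and 4. The other 5 steps exceeded counting error. The step from DDGS replicate 1 to SBM replicate 1, 148 to 175 CPM, was among these, and so was that from SBM replicate 3 to SBM replicate 5, 217 to 274 CPM. Within a diet the highest animal had 1.53 times (DDGS) and 1.57 times (SBM) the level of the lowest.

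The fitted difference was a log2 fold change, DDGS over SBM, of -0.57 with a standard error of 0.16, or an ACTB level 1.48 times higher in SBM (edgeR's quasi-likelihood fit over all genes, n = 5 animals each). The pooled SD between animals of a diet was 0.25 on the log2 CPM scale, so the difference between the diets was larger than the spread of single animals. The standard error takes no account of the choice of this gene with its values known. ACTB was not among the genes called: at a Benjamini-Hochberg adjusted p under 0.05, edgeR's quasi-likelihood test called 0 of 12295 genes, a share of 0%, and limma voom called 0% of the same genes. At an unadjusted p under 0.05 edgeR counted 460 of the 12295 genes, of which 175 were fitted higher and 285 lower in DDGS. That is below the share of 0.05 that would fall under this limit with no difference in any gene. DESeq2 called 15 of 14085 genes, 0.106%, and ACTB was not one of them. Because the contrast was known when the gene was picked, nothing is read from ACTB's place outside these calls.

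The direction held in each of the 21 other fits that were run. ACTB was called in none of them, from which nothing is read, since most fits called 0 genes. With other scalings the log2 fold change was -0.58 (RLE factors), -0.55 (upper quartile factors), -0.63 (total counts) and -0.62 (total counts without the 2 most abundant identifiers). DESeq2 gave -0.60 with a standard error of 0.19 and limma voom -0.56 with a standard error of 0.16. In each of the 5 scalings the same number of pairs, 24 of 25, had the DDGS animal below the SBM animal. Means and spread were close to those under TMM with RLE factors (141 ± 24 CPM in DDGS, 211 ± 40 CPM in SBM, mean ± SD). With upper quartile factors they were 143 ± 27 and 209 ± 34 CPM. The spread was wider by total counts alone, with 140 ± 29 CPM in the 5 DDGS animals and 217 ± 59 CPM in the 5 SBM animals. The lowest value was then 102 CPM in DDGS replicate 3 and the highest 305 CPM in SBM replicate 5. Leaving the 2 most abundant identifiers out of the totals raised every CPM, to 289 ± 58 and 444 ± 116 CPM.

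The size of the difference depended most on SBM replicate 5 and, nearly as much but in the other direction, on DDGS replicate 5. Without SBM replicate 5 the fitted difference was -0.46 on the log2 scale (standard error 0.16), the smallest among the fits that left out 1 library. Without DDGS replicate 5, the DDGS animal with most ACTB, it was -0.67 with a standard error of 0.17, the largest. After the data had been seen, pairs of libraries that stand apart were also left out. The log2 fold change was then -0.40 without DDGS replicate 3 and SBM replicate 5, and -0.41 without SBM replicates 3 and 5, with standard errors of 0.15 and 0.17. By TMM scaling SBM replicates 5 and 3 had the most ACTB and DDGS replicate 3 the second least. A smaller difference without these libraries therefore follows from the choice. DDGS replicate 4, with the least ACTB and also apart in the set of 149 genes, was left out only alone.

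**Figure D2:**
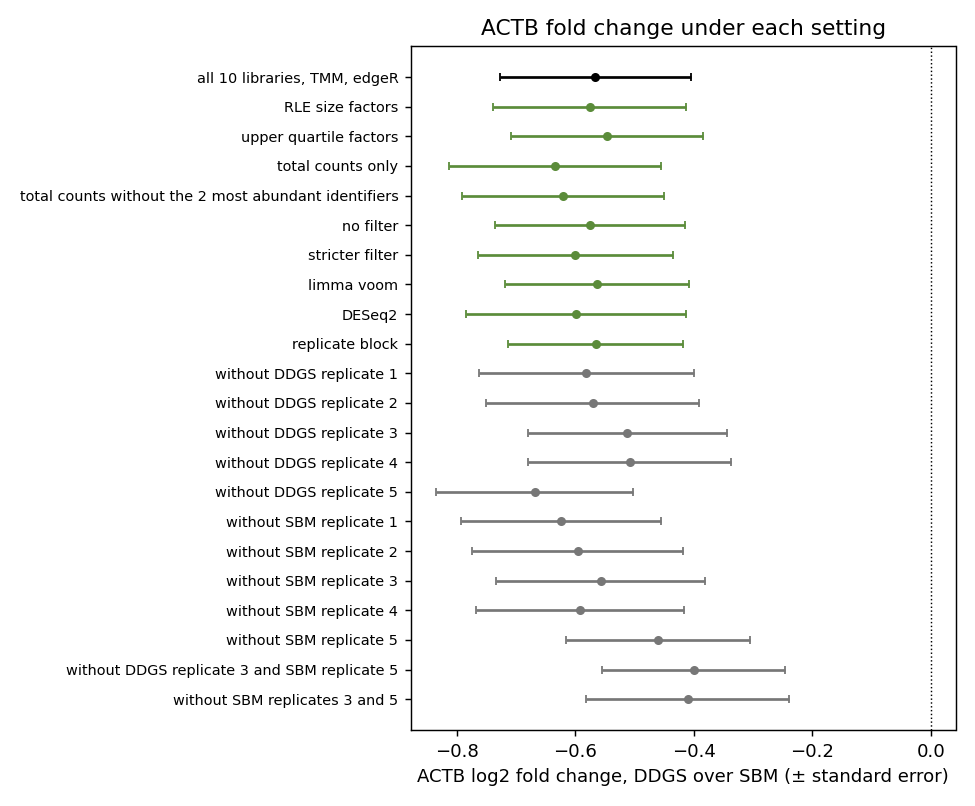
ACTB log2 fold change, DDGS over SBM (horizontal axis), with its standard error under each scaling, filter, tool and left-out library (vertical axis). The values run from -0.67 without DDGS replicate 5 to -0.40 without DDGS replicate 3 and SBM replicate 5, and none reaches 0.

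Set beside genes counted about as deeply, the ACTB difference lay near the lower edge. The comparison took the 421 other genes whose mean CPM was within 2-fold of that of ACTB; it matches how precisely a gene is counted, not its transcript level, since gene lengths were not used. Their median log2 fold change was 0.08, with 5th and 95th percentiles of -0.17 and 0.32. Of these genes, 6 (1.43%) had a lower fitted value than ACTB, and the same 6 were the genes whose fold change was at least as large as that of ACTB in either direction. Without any 1 library, 4 to 7 of the 421 lay below ACTB. Among all 12294 other genes tested, where lowly counted genes scatter widely, 13.6% had a lower value. The median standard error of the 421 genes was 0.16, as for ACTB.

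ACTB was also less even across the animals than most genes counted as deeply. Its coefficient of variation (CV, the SD over the mean) across all 10 animals was 26.9%, and 359 of the 421 genes, 85.3%, had a lower one. The interquartile range of the 421 genes ran from 13.6% to 22.6%, with a median of 17.6%. Scaled by total counts, ACTB had a CV of 33.6% and 91.6% of 416 such genes lay lower. SBM replicate 5 weighed most on this measure: without it the CV was 20.8% and 73.4% of the 421 genes lay lower. Without SBM replicates 3 and 5, the animals with most ACTB, left out after the data had been seen, 68.6% lay lower.

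Within a diet ACTB varied about as much as other genes. The CV was 17.6% among the DDGS animals, where 52.3% of the 421 genes had a lower CV and their median was 17.3%. Among the SBM animals it was 18.4%, 59.6% had a lower CV and the median was 16.5%. The place of ACTB among these genes thus depended on whether the CV was taken across both diets or within 1 of them. With total counts as the scale the ACTB CV was 21.0% in DDGS and 27.3% in SBM, and 75.7% and 89.2% of 416 genes lay lower. The gene-wise biological coefficient of variation that edgeR estimated for ACTB was 23.8%. That estimate is drawn towards the 27.2% of the trend over genes at its level and is therefore not ACTB's own spread.

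**Figure D3:**
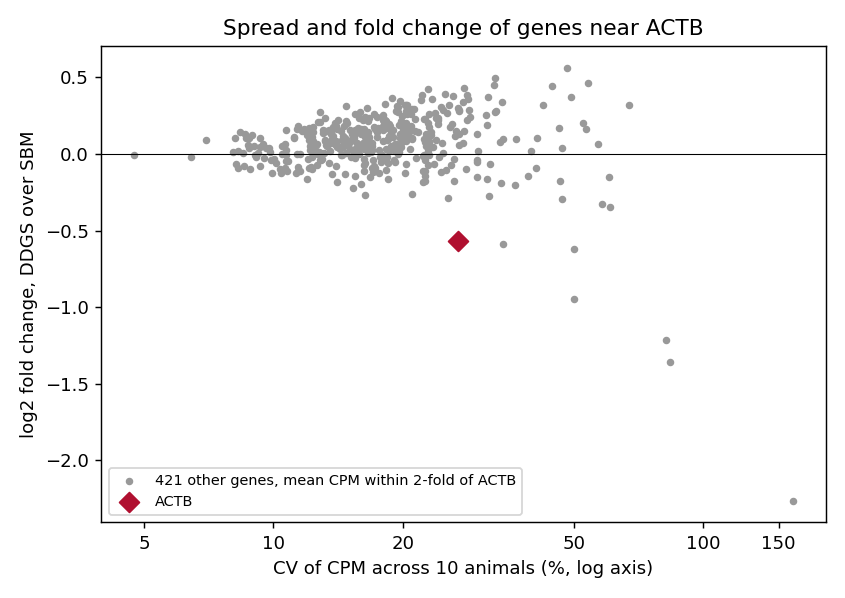
Coefficient of variation across the 10 animals (horizontal log axis, percent) against log2 fold change, DDGS over SBM (vertical axis), for ACTB (diamond) and the 421 other genes with a mean CPM within 2-fold of it (dots). ACTB, at 26.9% and -0.57, lies below nearly all of these genes on the vertical axis and to the right of 85.3% of them.

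The use of ACTB as a reference gene was imitated by scaling every library to its ACTB count alone. In relation to the mean of all animals, the ACTB level was 0.67 in DDGS replicate 4, 0.69 in DDGS replicate 3 and 1.56 in SBM replicate 5, and the other 7 animals lay between 0.82 and 1.23. Dividing by ACTB carries these differences, inverted, into every other gene. The median log2 fold change of the 12294 other genes was -0.01 under TMM scaling and 0.55 under ACTB scaling, an apparent 1.47-fold higher level in DDGS. At an unadjusted p under 0.05, the ACTB-scaled fit counted 3607 genes, 3583 fitted higher and 24 fitted lower in DDGS, where the TMM fit counted 460. None had an adjusted p under 0.05 in edgeR's quasi-likelihood test with ACTB scaling (0% of 12295 genes). The shift and the counts that go with it restate the ACTB difference under another scale. Since TMM aligns the bulk of the genes by design and neither scale gives absolute levels, no change of those genes is read from them.

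**Figure D4:**
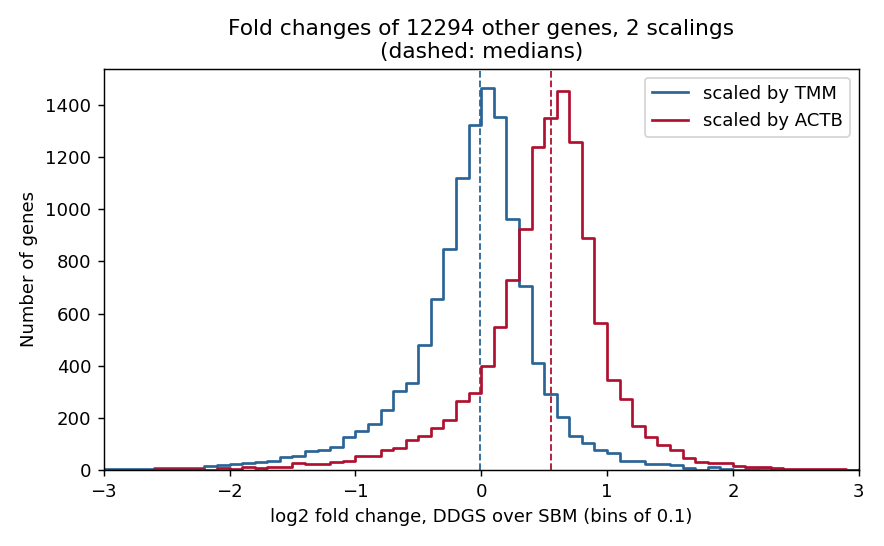
Number of genes (vertical axis) by log2 fold change, DDGS over SBM, in bins of 0.1 (horizontal axis), for 12294 genes other than ACTB, scaled by TMM or by the ACTB count of each library; values beyond -3 and 3 are not drawn. The dashed medians stand at -0.01 (TMM) and 0.55 (ACTB).

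Some features of the libraries were set beside the ACTB level. Log2 CPM of ACTB was compared with 4 library measures over all 10 animals, with p-values from two-sided permutation tests of 100000 resamples and adjusted over the 4 relations. For total counts, Pearson's r was -0.12 (permutation p = 0.747, adjusted p = 0.747) and Spearman's rho 0.02 (permutation p = 0.972, adjusted p = 0.972). For the number of genes listed at 1, r was -0.20 (permutation p = 0.572, adjusted p = 0.747) and rho -0.20 (permutation p = 0.581, adjusted p = 0.809). For the share of the 2 most abundant identifiers, r was -0.18 (permutation p = 0.616, adjusted p = 0.747) and rho -0.19 (permutation p = 0.607, adjusted p = 0.809). None of these 3 relations passed the test. Without the 2 libraries farthest from the median of each measure, r was -0.25, 0.03 and -0.07.

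The relation with the median log2 CPM of all tested genes, taken on total counts, was the closest of the 4 over all 10 animals. It had r = 0.57 (permutation p = 0.0835, adjusted p = 0.334) and rho = 0.58 (permutation p = 0.0872, adjusted p = 0.349) and did not pass the test. Without SBM replicate 5 and DDGS replicate 3, the libraries farthest from the median of this measure, r was 0.00. Without SBM replicate 5 alone r was 0.33, and without DDGS replicate 3 alone 0.41. DDGS replicate 4 bears on the relation in the other direction, with a high median gene and the lowest ACTB by TMM scaling. Without that library r was 0.92 (permutation test, adjusted p = 0.00352). This was the highest value with 1 library left out, where the others ran from 0.33 to 0.60. The p is adjusted over the 4 relations, not over the choice of library, so no relation is read from it. As deviations from the mean of each diet, chosen after the data had been seen, r was 0.54 over the 10 animals. Within the 5 DDGS animals alone r was 0.13 and within the 5 SBM animals 0.95, values given with no test. The median log2 CPM averaged 2.70 ± 0.21 over the 5 DDGS animals and 2.83 ± 0.21 over the 5 SBM animals (mean ± SD). Its part in the ACTB difference was not tested.

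The set of 149 genes was chosen for wide and shared variation over these same libraries, so its unevenness follows from that choice. Its summed level, relative to total counts, was 6547 CPM in SBM replicate 5 and 2696 CPM in SBM replicate 3, the animals with most ACTB. In DDGS replicate 4, which had least ACTB by TMM scaling, it was 2187 CPM. SBM replicates 2 and 4 had 665 and 644 CPM, and the other 5 animals had 47 to 91 CPM. By TMM scaling the 2 highest ACTB levels thus fell together with the 2 highest sums, and the lowest ACTB level with the third highest. By total counts, the scale of the sums, SBM replicates 5 and 3 again had most ACTB, at 305 and 249 CPM. DDGS replicate 4 then had 133 CPM of ACTB. The lowest was DDGS replicate 3 at 102 CPM, with a sum of 47 CPM. Without SBM replicates 3 and 5 the ACTB log2 fold change was -0.41, as given above.

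In bulk muscle RNA, fewer cells that express ACTB and less ACTB RNA in each cell cannot be told apart. Markers of muscle fibres, vessels, connective tissue, fat, blood and immune cells, the other actins and other reference genes were listed by symbol, but with no identifiers paired to symbols their levels were not measured. The labelled tissue was therefore not checked against markers, and the part of cell composition in the ACTB levels was not tested.

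Genes with the most similar levels were sought among the 4856 other genes with a mean of at least 10 CPM, by Pearson's r of log2 CPM with ACTB over the 10 animals, as a description with no test. The median r was -0.12 and the interquartile range ran from -0.43 to 0.23. An r above 0.9 was reached by 3 genes and one below -0.9 by 2. The points share the libraries and their scaling, and with this many genes and 10 animals the extremes are picked for being extreme. They are given by identifier only.

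The level of ENSBTAG00000009475 was most like that of ACTB, with r = 0.93 and Spearman's rho = 0.95 over the 10 animals. It stood at 8.39, 6.29, 6.05, 7.18 and 10.4 CPM in DDGS replicates 1 to 5. In SBM replicates 1 to 5 it stood at 9.10, 11.4, 11.7, 12.0 and 24.4 CPM. As for ACTB, DDGS replicate 5 was the only DDGS animal to reach into the SBM range and SBM replicate 5 was the highest, here far above the others. The second, ENSBTAG00000010888, had r = 0.91 and ranged from 5.78 to 17.3 CPM in DDGS animals and from 12.0 to 26.3 CPM in SBM animals, with more overlap between the diets. Their log2 fold changes were -0.84 and -0.61 with standard errors of 0.29 and 0.29, and edgeR called neither.

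ENSBTAG00000016680 was the most opposed to ACTB, with r = -0.94 and rho = -0.88. It stood at 26.6, 35.2, 38.1, 35.5 and 25.1 CPM in DDGS replicates 1 to 5. In SBM replicates 1 to 5 it stood at 27.9, 26.3, 21.5, 27.7 and 17.3 CPM. SBM replicate 5, highest for ACTB, was the lowest here, and the diets overlapped. ENSBTAG00000016140 had r = -0.90 and ranged from 12.6 to 17.5 CPM in DDGS animals and from 6.18 to 15.2 CPM in SBM animals. Their log2 fold changes were 0.41 and 0.41 with standard errors of 0.19 and 0.25, and edgeR called neither. As deviations from the mean of each diet, r with ACTB was 0.87, 0.91, -0.92 and -0.91 for the 4 genes in the order given. These genes were picked for their r over the same animals, so nothing is read from these values.

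**Figure D5:**
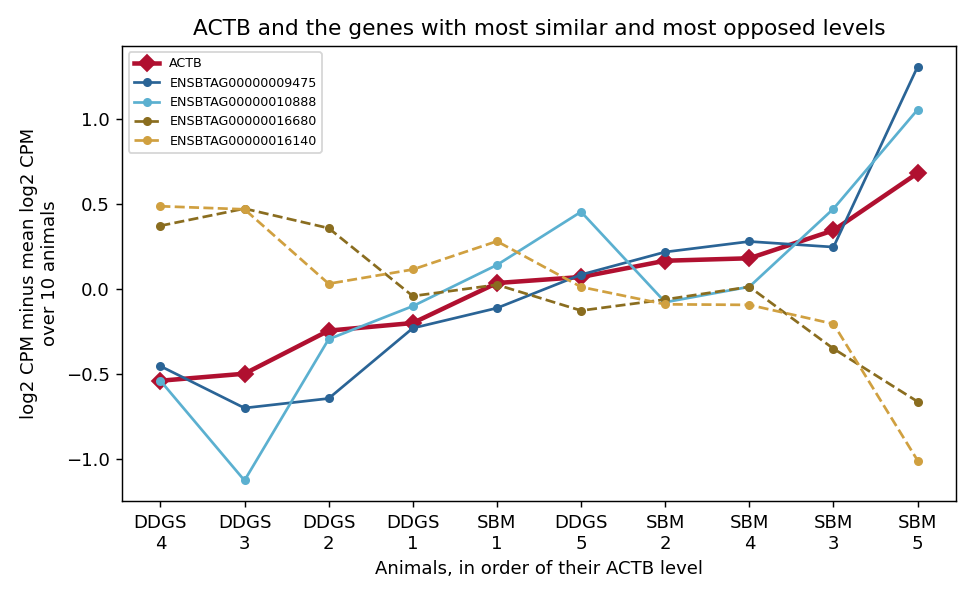
Levels of ACTB and of the 4 genes with the highest (solid lines) and lowest (dashed lines) correlation with it, as log2 CPM minus the gene's mean over 10 animals (vertical axis), with the animals in order of their ACTB level (horizontal axis). The solid lines climb with ACTB to SBM replicate 5, where ENSBTAG00000009475 reached 24.4 CPM, and the dashed lines descend, ENSBTAG00000016680 to 17.3 CPM.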

How the data were processed

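Total RNA of 10 longissimus samples was sequenced from TruSeq Stranded Total RNA libraries, per the labels. The authors deposited whole-number read counts per Ensembl gene, 1 column per animal, not scaled; 0 sample columns were left unused. Tools listed in the submitters' processing notes are HTSeq 0.5.3p7, TopHat2 2.0.9, Bowtie2 and FastQC 0.10.1, with UMD3.1 as the assembly. Not given in the sources used here are the annotation release, the strand setting, the handling of multi-mapped or duplicate reads, and filters. The lowest value is 1 in a table without 0.

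The counts were fitted with edgeR 4.0.16 (R 4.3.3): TMM factors, the default expression filter (12295 genes), a robust quasi-likelihood fit on diet, and Benjamini-Hochberg adjustment over all genes with a threshold of 0.05. Alternatives were other scalings and filters, DESeq2 1.42.0, limma voom (limma 3.58.1), a replicate block and left-out libraries. Log2 CPM used a prior count of 2. Named genes were ACTB and, among genes of at least 10 CPM on average, the 2 most and 2 least correlated with it. ACTB and the lists of symbols, none of which could be matched, were chosen with earlier results of these data known. The set of 149 varying genes was rebuilt as in that earlier work. It is the largest cluster, by correlation, of genes that varied widely over these libraries and had at least 100 counts in some library. The scripts were tested on simulated data.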

Additional observations from a re-analysis of the deposited data

Results flagged for a closer look

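Values of single animals that stood far from the other 4 of their diet, by Dixon's criterion for 5 values, are given here. Of 18 groups of 5 values examined (ACTB, the 4 genes named beside it and 4 library measures), 2 held such an animal, where chance gives about 1 in 20. ACTB itself had none. SBM replicate 5 had 24.4 CPM of ENSBTAG00000009475, the gene whose level was most like that of ACTB, against 9.10 to 12.0 CPM in the other SBM libraries. Without this library its r with ACTB was 0.91. In DDGS replicate 3 the table's lowest value of 1 filled 5078 genes (3022 to 3528 in the other 4 of its diet), and its ACTB level was the second lowest of all.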

How the results depend on the processing

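The ACTB log2 fold change stayed below 0 and within 1 SD between animals of its value in all 21 alternatives, from -0.67 to -0.46 when 1 library was left out. With the replicate number as a block it was -0.57 with a standard error of 0.15, and the block called 0 genes. The labels do not say whether the numbers pair the animals. Deviations of same-numbered libraries correlated at -0.07 to 0.07, and 2 of 10 libraries correlated best with their own number. No pairing was seen in these values, but they cannot exclude one. The count of called genes was 0, except 15 with DESeq2 and 0 to 1 without 1 library each, the 1 without DDGS replicate 4. The cause was not tested. The ACTB CV of 26.9% was 33.6% with total counts and 20.8% to 28.6% without 1 library. The correlation with the median log2 CPM was 0.78 with total counts (permutation test, adjusted p = 0.0348), where ACTB and the median share the same scale, and 0.33 to 0.92 without 1 library. The other 3 relations did not pass in any alternative. Of the 4 genes named for likeness, 2 were still among the 4 extremes with total counts and 2 by Spearman's rho, 0 to 3 without 1 library, and 1 as deviations within the diets, so which genes rank as most like ACTB depended on these settings. ACTB had at least 1774 counts in each library, so counting error is a small part of each level (2.37% or less).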
